A study of Mus musculus with 7 samples.

Results

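The cytosolic ribosomal protein genes were read in the livers of C57BL/6 mice, an inbred laboratory strain, at 3 months of age (4 samples) and at 21 months (3 samples). The comparison asks how transcripts of the large and the small ribosomal subunit stood in young adult and old liver. The labels name neither treatment, genotype nor sex, and leave unsaid whether each sample is its own animal. The p-values therefore rest on a spread between samples that may be technical. RNA enriched for mRNA was sequenced from strand-specific libraries, and each sample has 1 table of 23366 gene rows with estimated counts and TPM (a share of all transcripts, corrected for transcript length). Members were chosen by gene name: Rpl or Rps with a number, Rplp0, Rplp1, Rplp2 and Rpsa, without S6 kinase rows and rows named as pseudogenes. The rule took 84 rows, 51 of the large and 33 of the small subunit. Of these, 81 held enough counts to be tested, 48 large and 33 small.

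The cytosolic ribosome joins a small subunit, which reads the mRNA, to a large subunit, which forms the peptide bond and releases the chain through an exit tunnel. Each subunit takes up 1 copy of nearly every ribosomal protein, and the hepatocyte, which secretes most plasma proteins, is rich in ribosomes. Vertebrate ribosomal protein mRNAs usually start with a run of pyrimidines, the 5′ terminal oligopyrimidine or TOP tract, through which LARP1 and the mTORC1 kinase control their translation. Translation was not measured here.

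The start sites show what the members share outside the naming rule. RefSeq start-site sequences on the GRCm38.p6 build were matched by symbol for 63 of the 84 rows, on 17 chromosomes. Each sequence runs from 250 bases before to 50 bases after the annotated start. A run of at least 8 pyrimidines (C or T, on the transcript's strand) that reached the stretch from 20 bases before to 50 bases after the start was found in 49 of the 63 genes (77.8%). The share over all 27025 genes of that table was 31.1%. CCGGAAG, the core bound by ETS factors, stood on either strand of the whole sequence in 26 of the 63 (41.3%), against 9.93% of all genes. Both motifs were chosen after the sequences were seen, the windows come from a later build than the files, and a match is no measured site. Such a run need not be the TOP tract, since it may lie away from the start. In the windows below it begins at most 14 bases from the annotated start, except in Rpl39 (base 37 of the transcript) and Rpl26 (base 22). The Rpl39 run reaches the end of the sequence. The following 30-base windows, 5′ to 3′, show the longest run in capitals for 4 genes that were lower in old livers (Rpl35, Rpl7a, Rps18, Rpl18), 2 that did not pass the test (Rpl28, Rpl15) and the 2 that were higher (Rpl39, Rpl26).
Rpl35 (chr2:39005115-39005144, minus strand): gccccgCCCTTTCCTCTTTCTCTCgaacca
Rpl7a (chr2:26910788-26910817, plus strand): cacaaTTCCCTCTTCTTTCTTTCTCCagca
Rps18 (chr17:33955648-33955677, minus strand): gtcacttccgCTCTCTCTTCCacaggaggc
Rpl18 (chr7:45718062-45718091, plus strand): tcgcaggccgCTCTTTCCCCgcccactccg
Rpl28 (chr7:4792952-4792981, plus strand): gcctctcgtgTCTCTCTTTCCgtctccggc
Rpl15 (chr14:18270968-18270997, minus strand): gagaaagCCTTCTTCCTTTCCTCTggcggc
Rpl39 (chrX:37085173-37085202, minus strand): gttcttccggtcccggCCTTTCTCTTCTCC
Rpl26 (chr11:68901579-68901608, plus strand): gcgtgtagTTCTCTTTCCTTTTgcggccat
A run of at least 8 pyrimidines did not separate the genes that moved from those that did not. It was found in 12 of 16 matched genes that were lower at 21 months (75%) and in 33 of 42 that did not pass the test (78.6%).

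Libraries held 4724687 to 11143125 expected counts, of which the 45S ribosomal RNA precursor row took 18.7% to 25.6%. The members together took 1.46% to 1.59% of the remaining counts at 3 months and 1.27% to 1.42% at 21 months, with no overlap. Of all counts, with the 45S row kept, they took 1.09% to 1.27% and 1.02% to 1.10%, with overlap. Their share of TPM was 3.11% to 3.46% and 3.00% to 3.24%, also with overlap. The shortfall of effective length (the median gap between a gene's length and its effective length) was 34.4 to 38.8 bases at 3 months and 35.4, 30.9 and 21.4 bases in 21-month replicates 1, 2 and 3. Hepatocyte markers took 48468 to 62717 CPM at 3 months and 67157 to 70776 CPM at 21 months (CPM, a count scaled to library size after TMM normalization). Most of this was Alb, at 28742 to 43276 CPM at 3 months and 50175 to 53670 CPM at 21 months. In the hepatocyte list of 6, which marks the labelled tissue and was detected in every library, Alb was higher and Apoa1 lower. Cps1 was lower in all old libraries without passing the test, and Ttr, Serpina1a and Tat overlapped. The higher sum at 21 months was thus not shared by the list. Some lists of other cell types did not overlap between ages in their summed CPM. The 5 T and NK cell genes stood at 0.487 to 1.21 CPM at 3 months and 2.46 to 4.47 CPM at 21 months, the 4 neutrophil genes stood at 0.343 to 1.21 and 1.28 to 2.51 CPM, and none of either list held enough counts to be tested. The 4 stellate cell genes stood at 79.0 to 97.5 and 117 to 145 CPM (1 higher, Dcn), and the 4 bile duct genes at 15.8 to 24.1 and 11.9 to 13.7 CPM (1 of 3 tested lower, Sox9). Most of the stellate sum was Dcn, at 55.0 to 70.4 and 93.8 to 106 CPM, while Col1a1, Lrat and Des each overlapped. The lists of B and plasma cells, macrophages, endothelium, red cells and exocrine pancreas overlapped, with Igj higher and Lyve1 lower among them, and Cpa1, Prss1 and Pnlip at 0 counts. Some of these marker calls did not hold with single libraries left out: Igj without any young library or old replicate 1, Lyve1 without young replicate 2 or old replicate 1 or 3, Alb without young replicate 1, 3 or 4 or old replicate 3, and Apoa1 without young replicate 2 or old replicate 3 (edgeR adjusted p = 0.0502 to 0.142). The part of these cells in the results below was not tested.

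At 21 months, 22 of the 81 tested members were lower and 2 were higher. This is 27.2% lower, where 5.86% of all 11251 genes tested were lower and 5.47% higher. Calls came from the quasi-likelihood test of edgeR, with p-values adjusted over all genes by Benjamini-Hochberg and a threshold of 0.05. Changes were small, with a median log2 fold change (21 months minus 3 months) of -0.18 over the members and 0.00 over the genes that are not members. This test does not use the replicate numbers. With these as a block, 16 members were lower (19.8%, against 4.58% of all genes tested) and their median was -0.14. The fitted falls of the 22 ran from 1.26-fold to 1.66-fold, with a median of 1.35-fold. In bulk tissue, fewer cells of a type and less RNA per cell cannot be told apart. Of the 57 members that did not pass, 48 had a negative fold change, and the 12 with an unadjusted p under 0.05 were all among these. The CPM of the ages did not overlap for 34 members on the lower side and 2 on the higher side, against 12.8% and 11.3% of all genes tested.

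The count changed most with 1 old library and with the shortfall of effective length. Without 21-month replicate 3, whose shortfall was smallest, 3 of 81 members were lower (3.70%, against 2.20% of all genes). The count was 15, 13, 9 and 8 without young replicates 1, 2, 3 and 4 (18.5%, 16.0%, 11.1% and 9.88%). In these fits 4.30%, 3.64%, 3.80% and 3.31% of all genes were lower. It was 29 without old replicate 1 (35.8%, against 7.91% of all genes) and 8 without old replicate 2 (9.88%, against 4.10%). With the shortfall as a covariate, 0 members were lower and 1 was higher by edgeR, where 1.36% of all genes were lower and 1.59% higher. At an unadjusted edgeR p under 0.05, 19 members were lower and 3 higher. Other tools were not run with the covariate. The median log2 fold change in this fit was -0.16, and the members' median SE was 0.14 in place of 0.11.

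**Figure D1:**
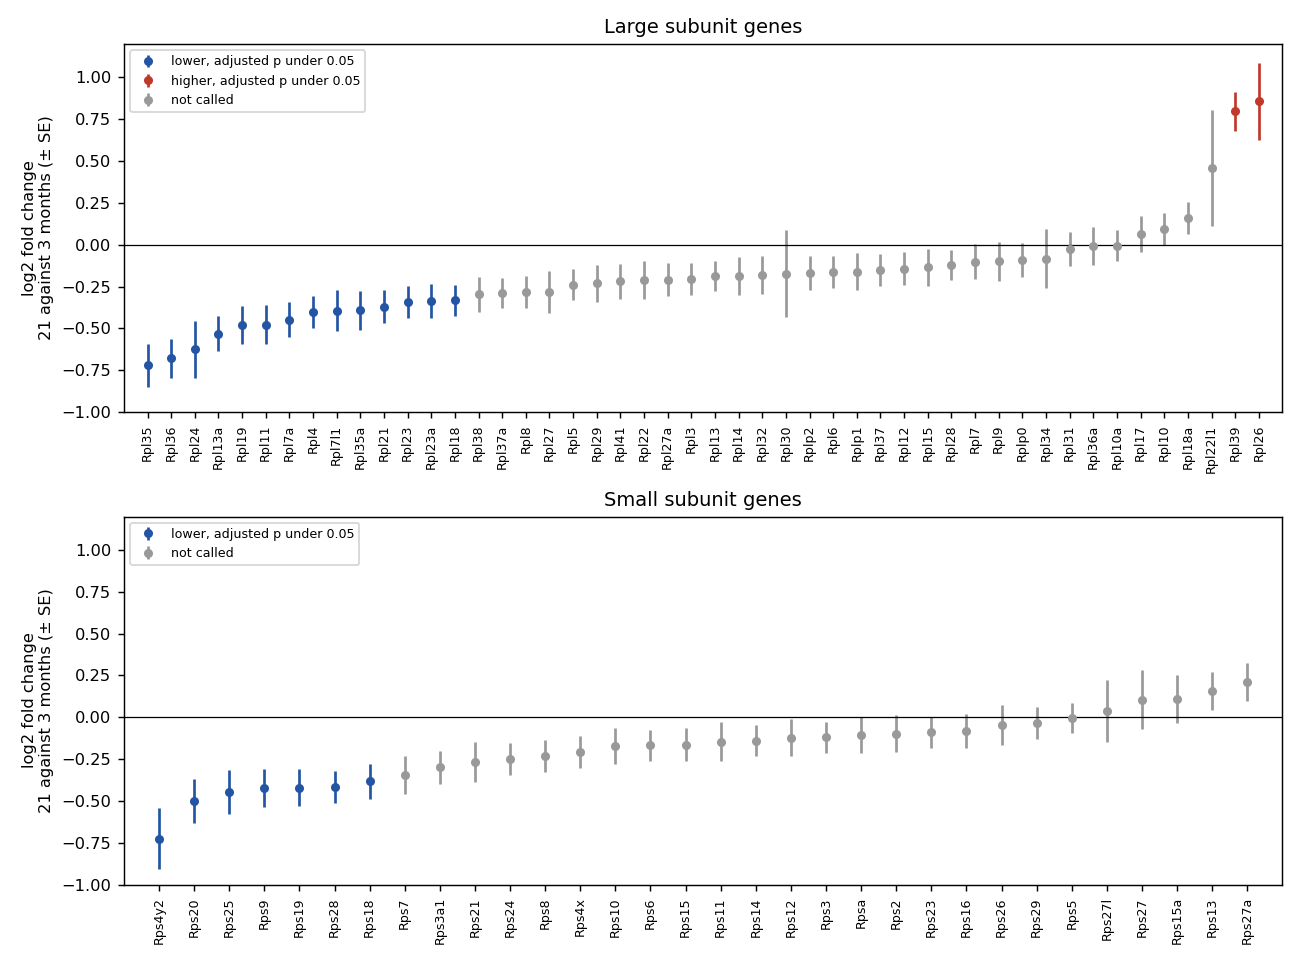
Log2 fold change of the ribosomal protein genes reported here at 21 against 3 months, with its standard error, for the large subunit (upper panel) and the small subunit (lower panel). Blue genes were lower and red genes higher at an edgeR adjusted p under 0.05; grey genes did not pass. Most points lie below 0, from -0.73 for Rps4y2 to 0.86 for Rpl26.

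Genes of both subunits fell. Of 48 large subunit genes, 14 were lower and 2 higher, with a median log2 fold change of -0.20. Of 33 small subunit genes, 8 were lower, with a median of -0.16. Over all genes tested, 5.86% were lower and 5.47% higher. By edgeR, 0 small subunit genes were higher, also at an unadjusted p under 0.05 and by DESeq2 and limma voom. A negative fold change was found in 42 of 48 and 28 of 33. The difference between the subunits was not tested.

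Summed over all large subunit rows, the level was 6928, 6837, 6920 and 7863 CPM in 3-month replicates 1 to 4 and 6547, 5958 and 5830 CPM in 21-month replicates 1 to 3. All 3 old libraries lay below all 4 young ones, and the mean went from 7137 ± 486 (SD, n = 4) to 6112 ± 382 (SD, n = 3), a change of -14.4%. The small subunit sum was 4840, 4739, 4859 and 5492 CPM at 3 months and 4780, 4355 and 4147 CPM at 21 months. Here the ages overlapped, because 21-month replicate 1 lay above 3-month replicate 2, although the sum was lower at 21 months in each of the 3 pairs of same-numbered samples; the mean went from 4983 ± 344 (SD, n = 4) to 4427 ± 323 (SD, n = 3), a change of -11.1%. No test was made of sums over the members, since the members were chosen with results of these data known.

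The ratio of the large to the small subunit sum needs no scaling between libraries. It was 1.43, 1.44, 1.42 and 1.43 in 3-month replicates 1 to 4 and 1.37, 1.37 and 1.41 in 21-month replicates 1 to 3. The old libraries lay below the young ones, and the mean went from 1.43 ± 0.00757 (SD, n = 4) to 1.38 ± 0.0214 (SD, n = 3), a change of -3.57%. On the TPM scale the ratio was 1.333 to 1.362 at 3 months and 1.295 to 1.329 at 21 months, with a gap between the ages of less than the SD of either. In CPM, the gap from the lowest young ratio (1.424) to the highest old one (1.406) was less than the SD at 21 months. With each of the 84 members left out in turn, the ages did not overlap in any of the 84 ratios in CPM. Without the members called, the ages overlapped, at 1.110 to 1.139 and 1.098 to 1.146, a change of -0.586%. Those members were picked by their fold change, so a smaller change without them follows in part from the choice.

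**Figure D2:**
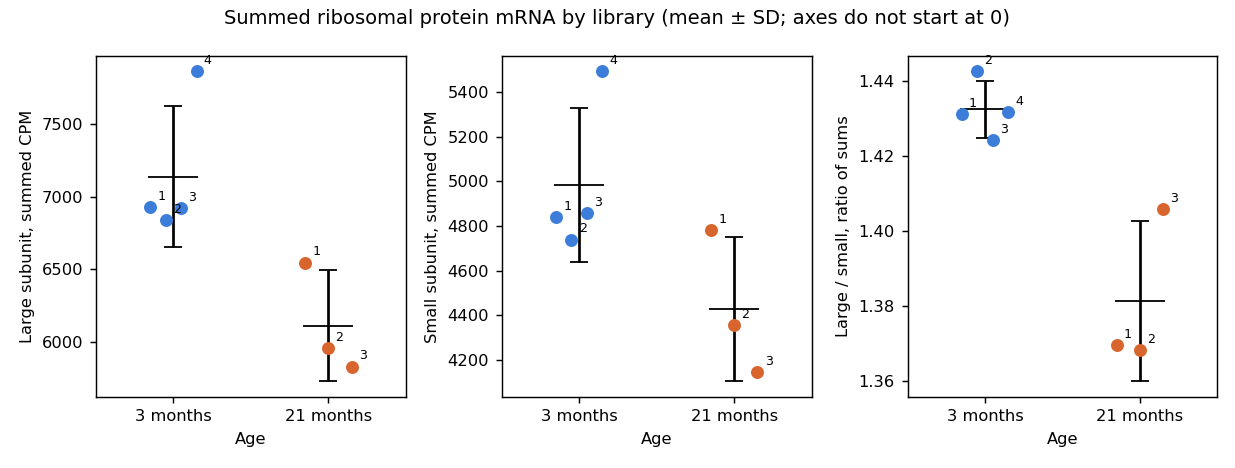
Summed CPM of the large subunit rows, of the small subunit rows, and the ratio of these sums, for each library (points numbered by replicate) with the mean and SD of each age. The large subunit sum and the ratio are lower in all 3 libraries of 21 months than in the 4 of 3 months, while the small subunit sums overlap (4739 to 5492 against 4147 to 4780 CPM).

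The libraries of an age did not stand together. On the log2 scale, the median deviation of the tested members from their own mean over all libraries was 0.07, 0.01, 0.05 and 0.22 in 3-month replicates 1 to 4. It was 0.01, -0.16 and -0.20 in 21-month replicates 1 to 3. Young replicate 4 was therefore the highest, and old replicate 1 stood at the level of young replicate 2. Members below their own mean numbered 20, 34, 23 and 6 of 81 in the young libraries and 38, 70 and 71 in the old ones. Old replicates 2 and 3, the lowest for the members, were also the libraries with the smallest shortfall of effective length.

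Among large subunit genes, Rpl36 and Rpl35 fell with the smallest p-values. For Rpl35, which sits at the peptide exit, the young libraries (replicates 1 to 4) gave 123, 118, 130 and 151 CPM and the old ones (replicates 1 to 3) 96.6, 71.1 and 69.3 CPM. All old libraries lay below all young ones, and the log2 fold change was -0.72 ± 0.13 (SE; edgeR adjusted p = 0.00296). Rpl36, another large subunit protein, stood at 128, 123, 126 and 152 CPM at 3 months and at 96.1, 77.2 and 73.7 CPM at 21 months (log2 fold change -0.68 ± 0.12 SE, edgeR adjusted p = 0.00210). Again the ages did not overlap.

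Rpl13a, which is also known as a translational repressor once released from the ribosome, joined Rpl35 and Rpl36 as the large subunit genes whose falls passed in each of the 7 fits that left out 1 library. It stood at 306, 312, 336 and 388 CPM at 3 months and at 246, 234 and 217 CPM at 21 months (log2 fold change -0.53 ± 0.10 SE, edgeR adjusted p = 0.00521). With the shortfall as a covariate, the falls of Rpl36, Rpl35 and Rpl13a did not pass (edgeR adjusted p = 0.0582, 0.0703 and 0.0783, log2 fold changes -0.57, -0.59 and -0.50).

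Rpl7a, Rpl19 and Rpl4 form a second group of abundant large subunit genes with falls of 1.32-fold to 1.40-fold. Rpl7a stood at 285, 283, 297 and 357 CPM at 3 months and at 235, 219 and 218 CPM at 21 months (edgeR adjusted p = 0.0125). Rpl19, whose protein reaches across to the small subunit, stood at 235, 220, 241 and 260 CPM and at 201, 163 and 148 CPM (edgeR adjusted p = 0.0133). The ages did not overlap for these genes.
Rpl4, which lines the exit tunnel, stood at 340, 352, 359 and 373 CPM and at 296, 264 and 249 CPM (edgeR adjusted p = 0.0146), also without overlap. None of the 3 passed once old replicate 3 was left out (edgeR adjusted p = 0.0734 for Rpl7a, 0.0983 for Rpl19 and 0.102 for Rpl4).

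Rpl11 and Rpl5 join the 5S ribosomal RNA in a particle that also binds Mdm2, the inhibitor of p53. Rpl11 fell 1.39-fold, from 156 ± 14.5 (SD, n = 4) to 112 ± 17.3 CPM (SD, n = 3), with no overlap between ages (edgeR adjusted p = 0.0152). Leaving out young replicate 4 raised its edgeR adjusted p to 0.0526, leaving out old replicate 2 to 0.0575 and old replicate 3 to 0.101. Rpl5 did not pass (log2 fold change -0.24 ± 0.09 SE, edgeR adjusted p = 0.105), although its CPM at 21 months (132 to 141) lay below those at 3 months (151 to 170). The difference between Rpl11 and Rpl5 was not tested.

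Rpl24, which forms a bridge to the small subunit, fell 1.54-fold, with old replicates 2 and 3 far below the rest. It stood at 106, 101, 105 and 126 CPM at 3 months and at 95.5, 57.1 and 59.7 CPM at 21 months (edgeR adjusted p = 0.0406). Old replicate 1 lay close to the young range. It did not pass when any young library or old replicate 2 or 3 was left out (edgeR adjusted p = 0.0688 to 0.145), and passed without old replicate 1. The other large subunit genes that fell were Rpl35a, Rpl21, Rpl23, Rpl23a, Rpl18 and Rpl7l1, with fitted falls of 1.26-fold to 1.31-fold. None of these 6 passed when young replicate 3 or 4 or old replicate 2 or 3 was left out. Leaving out young replicate 1 ended the calls of Rpl18, Rpl23, Rpl35a and Rpl7l1, and leaving out young replicate 2 those of all but Rpl18. With library-size scaling none of the 6 passed. Rpl35a and Rpl7l1 also did not pass with RLE scaling (edgeR adjusted p = 0.0516 and 0.0562), with the Rn45s and Lars2 rows removed (0.0531 and 0.0578), by DESeq2 (adjusted p = 0.0577 and 0.0695) or by limma voom (0.0543 and 0.0521), nor did Rpl23a with those rows removed (0.0508) or by DESeq2 (0.0534). With replicate numbers as a block, Rpl18, Rpl21, Rpl23 and Rpl23a did not pass (edgeR adjusted p = 0.0631, 0.0680, 0.0822 and 0.0856). Rpl18 and Rpl23a also did not pass with each library's trend of log2 CPM on length removed (edgeR adjusted p = 0.0514 and 0.0708).

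In the small subunit, Rps28, which lies where the mRNA leaves the ribosome, fell with the smallest p-value. It stood at 79.2, 79.2, 79.7 and 86.7 CPM at 3 months and at 56.6, 65.9 and 60.2 CPM at 21 months, without overlap (log2 fold change -0.42 ± 0.10 SE, edgeR adjusted p = 0.0126). It no longer passed once old replicate 3 was left out (edgeR adjusted p = 0.0672). Rps28 has the shortest transcript of the members tested, 327 bases. With each library's trend of log2 CPM on length removed, it did not pass (log2 fold change -0.27, edgeR adjusted p = 0.194). The longer Rpl18 and Rpl23a also lost their calls in that fit.

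Other coding small subunit genes that fell included Rps20, Rps25, Rps9, Rps19 and Rps18, by 1.30-fold to 1.41-fold. Rps19 is a gene in which loss of 1 copy causes Diamond-Blackfan anaemia, a failure of red cell formation. Rps20 stood at 106, 97.1, 95.1 and 113 CPM at 3 months and at 91.7, 61.6 and 64.1 CPM at 21 months (edgeR adjusted p = 0.0270). Rps19 stood at 95.6, 98.8, 109 and 117 CPM and at 90.7, 73.0 and 71.5 CPM (edgeR adjusted p = 0.0253). In both genes old replicate 1 came nearest to the young libraries, yet the ages did not overlap. Rps25 was the only one of the 22 lower members whose ages overlapped in CPM. Without 21-month replicate 3, these 5 were among the 20 member calls lost; leaving out young replicate 3, young replicate 4 or old replicate 2 lost Rps20, Rps25, Rps19 and Rps18 (edgeR adjusted p = 0.0516 to 0.143). Rps20 and Rps25 were lost with young replicate 1 left out, Rps20 and Rps9 with young replicate 2, and Rps9 with young replicate 4. Rps18, a protein of the small subunit head, and Rps19 did not pass with replicate numbers as a block (edgeR adjusted p = 0.0535 and 0.0537).

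Of 8 members known as Diamond-Blackfan anaemia genes (Rps7, Rps10, Rps19, Rps24, Rps26, Rpl5, Rpl11 and Rpl35a, a partial list grouped after their values were seen), 3 fell and 5 did not pass. Of all 81 tested members, 27.2% fell. Rpl26, which rose, is not among these 8, so the counts do not describe all genes of the disease. Rps26 lay at 88.1 and 85.1 CPM on average (edgeR adjusted p = 0.853), so that genes of this group were found on both sides of the threshold.

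Rps4y2 had the most negative fold change of all members. It is a row with a non-coding RefSeq accession, whose level was far below that of its coding relative Rps4x: 48.7 TPM against 299 TPM at 3 months. It stood at 20.1, 26.7, 27.1 and 16.1 CPM at 3 months and at 16.0, 12.0 and 12.7 CPM at 21 months (log2 fold change -0.73 ± 0.18 SE, edgeR adjusted p = 0.0219). The gap between the ages was only that between young replicate 4 and old replicate 1. In TPM the ages overlapped, and the row did not pass when young replicate 2 or 3 or old replicate 2 or 3 was left out (edgeR adjusted p = 0.0678 to 0.105).

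**Figure D3:**
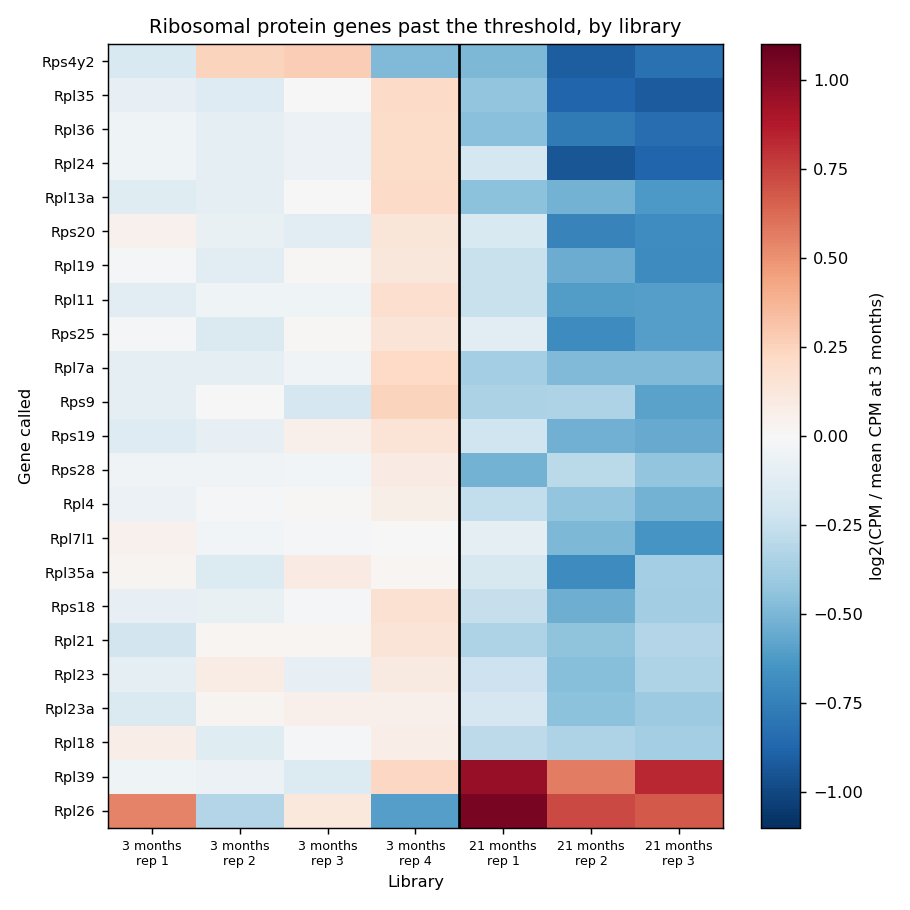
Colour gives log2 of each library's CPM over the mean CPM at 3 months for the ribosomal protein genes reported here that passed the test; rows are genes ordered by fold change, columns are libraries. The rows above Rpl39 turn blue at 21 months, more so in replicates 2 and 3, while Rpl39 and Rpl26 turn red in all 3 old libraries.

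Against this, Rpl39 and Rpl26 rose. For Rpl39, a very small protein that lines the exit tunnel, the young libraries gave 43.4, 42.9, 40.3 and 52.4 CPM and the old ones 87.2, 66.2 and 79.6 CPM. All old libraries lay above all young ones (log2 fold change 0.80 ± 0.12 SE, edgeR adjusted p = 0.000964). It had the smallest adjusted p of all members and passed in each fit that left out 1 library. With the shortfall as a covariate the fold change was 0.80 ± 0.16 SE (edgeR adjusted p = 0.0196), and it did not pass when the block and the shortfall were fitted together (0.0780). Every expected count of Rpl39 was a whole number.

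Rpl26, which sits at the exit site too, rose 1.81-fold from a low level. It stood at 23.4, 12.8, 17.4 and 10.6 CPM at 3 months and at 33.1, 26.5 and 25.6 CPM at 21 months (edgeR adjusted p = 0.0405). The young libraries differed among themselves by more than a factor of 2, and the lowest old library lay just above the highest young one. Rpl26 did not pass when young replicate 2, 3 or 4 or any old library was left out (edgeR adjusted p = 0.0633 to 0.113). Its counts were not whole in any of the 7 libraries, as RSEM gives where it divides reads between rows, so the value of this row is uncertain. The same limit holds for some members that fell. Counts were not whole in 7 libraries for Rps19 and Rpl7l1, and in 6 for Rpl23 and Rps25.

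Other genes of the exit site moved the other way or did not pass. Of 8 genes known for that place (Rpl4, Rpl17, Rpl19, Rpl23a, Rpl26, Rpl31, Rpl35 and Rpl39, grouped after their values were seen), 4 fell, 2 rose and 2 did not pass. Of all 81 tested members, 22 fell and 2 rose. Rpl17 and Rpl31 had log2 fold changes of 0.06 and -0.03.

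The most abundant members per length did not pass the test. Rps2, a protein near the mRNA entry, had the highest mean level, with 1364, 1519, 1562 and 1612 TPM at 3 months and 1530, 1698 and 1380 TPM at 21 months. Rpl41, the shortest ribosomal protein, followed with 1346, 1495, 1601 and 1631 TPM and 1304, 1552 and 1362 TPM. The ages overlapped in both (edgeR adjusted p = 0.620 and 0.198).
Rplp1 came next at 1154 ± 59.5 TPM (SD, n = 4) and 1108 ± 109 TPM (SD, n = 3). Rpl13 (793 and 753 TPM on average), Rps14 (776 and 759), Rpl10 (679 and 782) and Rps15 (714 and 688) followed. In TPM the ages overlapped in these except Rpl10. In CPM Rpl13 was lower in all old libraries (257 to 273 CPM, against 290 to 322 CPM at 3 months). It did not pass the test (edgeR adjusted p = 0.196). Compared with each other over all libraries, Rpl13 and Rps14, as Rpl10 and Rps15, did not differ in mean level beyond their spread, so the order within each pair is uncertain. Rps18 (715 and 589 TPM), eighth in this order, was the most abundant member that fell. On the TPM scale alone, Rpl10, Rpl10a and Rps13 were higher in all old libraries than in all young ones; in CPM they overlapped, and none passed the test.

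The acidic stalk, which recruits elongation factors, did not pass for any of its 3 genes. Rplp0 stood at 389 ± 36.2 CPM (SD, n = 4) and 365 ± 24.0 CPM (SD, n = 3), with a log2 fold change of -0.09 ± 0.10 SE (edgeR adjusted p = 0.613). Rplp1 and Rplp2 had log2 fold changes of -0.16 and -0.17 (edgeR adjusted p = 0.386 and 0.302). Rpsa, which is also known as a laminin receptor, stood at 440 ± 45.9 and 408 ± 30.1 CPM, a log2 fold change of -0.11 ± 0.10 SE (edgeR adjusted p = 0.566). Rps27a, which is made as a fusion with ubiquitin, had the highest fold change of the small subunit, 0.21 ± 0.11 SE (edgeR adjusted p = 0.256).

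Levels of the 81 tested members, as a mean over all libraries, ran from 7.71 TPM for Rps15a to 1523 TPM for Rps2, with quartiles at 257 and 502 TPM. Members under 100 TPM numbered 8. The Rps15a row has a transcript of 5134 bases, by far the longest of all members, and other rows hold copies of it: Rps15a stood at 19.3 and 20.5 CPM on average, Rps15a-ps4 at 11.4 and 18.7 CPM and Rps15a-ps6 at 11.1 and 6.35 CPM. The first of these copies rose and the second fell (edgeR adjusted p = 0.00281 and 0.0335), while the 3 rows together stood at 41.8 ± 3.87 and 45.6 ± 4.61 CPM. Rpl34-ps1, at 47.4 and 48.4 CPM, held more counts than Rpl34, at 11.9 and 11.1 CPM. Values of single rows with near-identical copies are therefore uncertain; 35 of the 84 members had a count that was not whole in at least 1 library.

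Of the paralog rows, which carry an l after the number, Rpl22l1 stood low. Rpl22l1, the paralog of Rpl22, had a log2 fold change of 0.46 ± 0.35 SE (edgeR adjusted p = 0.455), with 8.58, 8.58, 4.05 and 9.25 CPM at 3 months and 16.6, 7.82 and 7.14 CPM at 21 months. Only old replicate 1 lay above the young range, while Rpl22 itself stood at 54.7 and 47.0 CPM on average. Rps27l stood at 54.3 ± 6.52 and 55.2 ± 17.8 CPM. Rpl7l1, a relative of a yeast factor of large subunit assembly, fell from 62.9 ± 1.57 (SD, n = 4) to 47.7 ± 9.45 CPM (SD, n = 3; edgeR adjusted p = 0.0482), a call that the other scalings and tools named above did not keep. Rpl10l and Rpl3l, known from testis and muscle, had 0 counts in all libraries, which allows up to 0.0556 CPM over the 7 libraries. Rpl39l had 1 count in all.

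Transcript length was set beside the fold changes since effective length takes a larger share from short transcripts. Tested members had a median length of 703 bases, against 2822 bases for other genes. Members up to 500 bases had a median log2 fold change of -0.17 (n = 18), those of 500 to 750 bases -0.17 (n = 29), of 750 to 1000 bases -0.20 (n = 16), of 1000 to 1500 bases -0.19 (n = 10) and of 1500 to 2500 bases -0.17 (n = 6). Other genes of the first 2 bins had medians of -0.09 (n = 78) and -0.07 (n = 255), and of the next 3 bins 0.00, 0.01 and 0.02.
Other short genes thus lay below 0 as well, by less than the members, while the other genes of 750 to 2500 bases lay at about 0. Of members up to 500 bases, 27.8% were lower, against 11.5% of other genes of that length; from 500 to 750 bases the shares were 31.0% and 7.45%, and from 750 to 1000 bases 18.8% and 6.51%. Across the 81 members, length and fold change had Pearson r = 0.03 and Spearman rho = -0.03, a description over genes that share libraries.

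Among genes that are not members but lie in the range of CPM that holds most members (54.7 to 271 mean CPM), the median log2 fold change of those up to 1000 bases was 0.03 (n = 108, 7 lower and 15 higher). That of all members up to 1000 bases was -0.18 (n = 63, 17 lower and 2 higher). With a trend of each library's log2 CPM on length fitted over the other genes and removed, 20 members were lower and 2 higher, with a median of -0.14. These 20 are 24.7%, against 6.39% of all genes, and 19 of them were among the 22 lower members above. With the block as well, 16 were lower (19.8%, against 4.63% of all genes), with a median of -0.12.

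**Figure D4:**
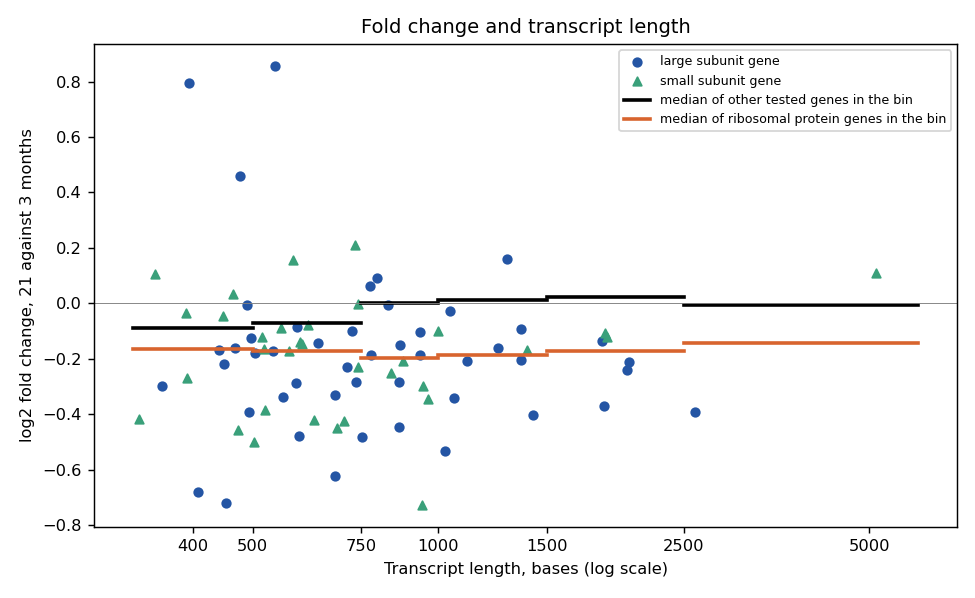
Log2 fold change at 21 against 3 months of each tested ribosomal protein gene against transcript length (log scale); horizontal bars give the median of ribosomal protein genes (orange) and of all other tested genes (black) in each length bin. The orange bars lie between -0.20 and -0.14 in all bins, below the black ones, which run from -0.09 for the shortest genes to 0.02.

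The scale mattered for size and count. On log2(TPM + 1), the median of all genes lay 0.10 above 0 and that of the members at -0.07, so that members stood 0.18 below all genes, the same distance as in CPM. In that fit by limma, 7 members were lower (8.64%, against 2.49% of all genes) and 2 higher, where 7.14% of all genes were higher. Summed TPM went from 19216 ± 965 to 17742 ± 581 for the large subunit and from 14242 ± 625 to 13567 ± 627 for the small one, with overlap between ages in both.

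**Figure D5:**
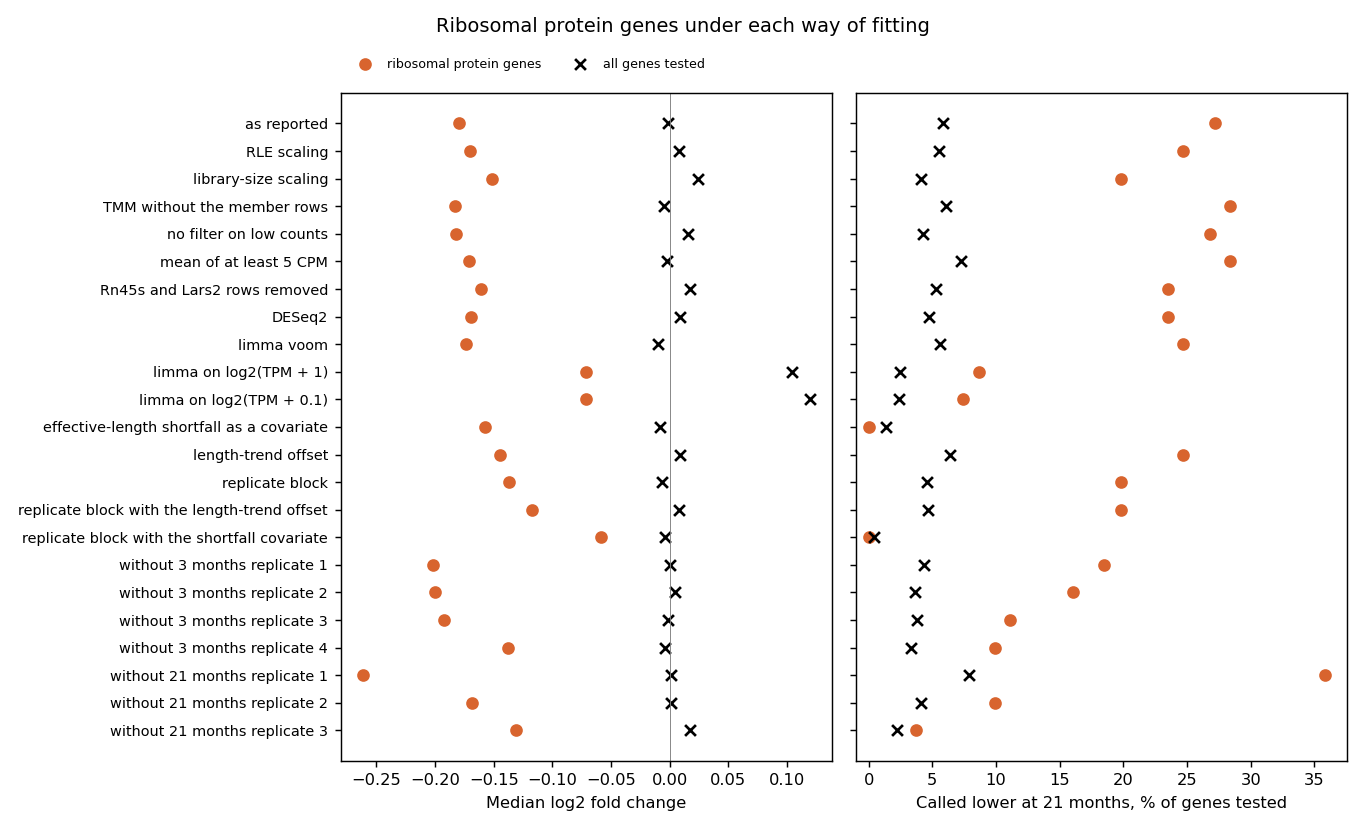
Median log2 fold change (left) and share of genes lower at 21 months in percent (right) for ribosomal protein genes (orange points) and all genes tested (black crosses) under each way of fitting. The medians of ribosomal protein genes stay below those of all genes, while their share lower runs from 0 with the shortfall as a covariate to 35.8% without 21-month replicate 1.

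Other genes of the pathway were read from fixed lists, to be set against 5.86% of all genes lower and 5.47% higher. Of 4 ribosomal protein genes that the naming rule leaves out, 0 passed the edgeR test. Among them, Fau, fused to a ubiquitin-like protein, had a log2 fold change of -0.16, Gnb2l1 (RACK1) 0.14 and Rpl36al -0.20. At an unadjusted p under 0.05 edgeR also gave 0 of the 4, DESeq2 gave 0 and limma voom 1, and 0 passed with adjustment in either. Of 15 other mRNAs known for a TOP tract, 3 fell and 1 rose, with a median log2 fold change of -0.17, where the members had -0.18. The falls were the elongation factor subunit Eef1d (log2 fold change -0.41, edgeR adjusted p = 0.0405), the initiation factor Eif4b (-0.40, 0.0469) and the nucleolar chaperone Npm1 (-0.35, 0.0354). Eif3f, an initiation factor subunit, rose (0.38, edgeR adjusted p = 0.0292). With the block, Eef1d and Npm1 did not pass (edgeR adjusted p = 0.0994 and 0.0770), and by DESeq2 and by limma voom 1 of the 15 fell and 1 rose. Each of these 4 calls was also lost with single libraries left out: Eef1d with young replicate 3 or 4 or old replicate 2 or 3, Npm1 with these or young replicate 2, Eif4b with any but young replicate 1, and Eif3f with young replicate 1, 2 or 3 or old replicate 2 or 3 (edgeR adjusted p = 0.0551 to 0.183).

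Of 13 genes of TOP and growth control, among them Larp1, Mtor, Rptor and Rps6kb1, 0 passed the edgeR test, 1 had an unadjusted p under 0.05, and 0 passed by DESeq2 or limma voom. Their median was -0.06. Of 7 chaperones that carry single ribosomal proteins, 1 fell: Grwd1, which binds Rpl3, went from 13.4 to 8.12 CPM (log2 fold change -0.71, edgeR adjusted p = 0.0121). It passed in each fit that left out 1 library and not with the shortfall as a covariate. The summed CPM of the chaperones was 208 to 228 at 3 months and 180 to 186 at 21 months, without overlap. The largest part of this sum was Aamp, at 109 to 118 and 96.6 to 103 CPM, which did not pass (edgeR adjusted p = 0.205). The sums of the ribosomal protein genes outside the naming rule, of the other TOP mRNAs and of the growth control genes overlapped between ages.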

How the data were processed

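Liver RNA of 4 samples at 3 months and 3 at 21 months was analysed. The authors deposited 1 gene table per sample with expected counts, TPM and FPKM; per the file headers these are RSEM gene values. The submitters' processing notes name TopHat, RSEM, edgeR and mouse build mm9; their versions are not stated there. FPKM were not used, and 0 sample columns were left unmapped. Expected counts (86.5% whole as deposited, 74.1% for the members) were rounded. Genes were kept by filterByExpr (minimum count 10, total 15), scaled by TMM and tested by edgeR 4.0.16 (R 4.3.3) with its robust quasi-likelihood test, 21 against 3 months, with Benjamini-Hochberg adjustment over all genes and a threshold of 0.05. CPM are counts scaled to the effective library size. The main fit and the fit with the length offset were run on simulated counts. The replicate block, the shortfall covariate and the fits that left out a library were not.

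Alternatives were RLE and library-size scaling, TMM without the members, no filter or a mean of at least 5 CPM, removal of the Rn45s and Lars2 rows, DESeq2 1.42.0, limma 3.58.1 voom, limma on log2(TPM + 1) and log2(TPM + 0.1), the shortfall as a covariate, a length offset (per library loess, span 0.5, over genes that are not members), the replicate number as a block, and each library left out. The block with the shortfall was added after seeing the data. Same-numbered samples of the ages deviated together (correlation over genes 0.104 to 0.174 in 3 pairs, -0.222 to 0.159 for other pairs; own number highest in 2 of 3). The numbers, which the labels do not explain, were therefore used to pair samples in the block fits only. The main test did not use them and is unpaired.

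Named genes were all members past the threshold, the 4 of highest TPM per subunit, Rplp0, Rplp1, Rplp2, Rpsa, paralog rows, the 3 largest fold changes each way, and list genes past the threshold; others were named after their values were seen. The members and lists (ribosomal protein genes outside the naming rule, other TOP mRNAs, TOP and growth control, chaperones, and markers of hepatocytes, B, T and NK cells, macrophages, neutrophils, endothelium, stellate cells, bile duct, red cells and exocrine pancreas) were chosen with earlier results of these data known. Start-site sequences came from RefSeq. Counts cover all members; single items are not reported here.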

Additional observations from a re-analysis of the deposited data

Results flagged for a closer look

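Among 43 values checked in the 4 libraries of 3 months, 7 had 1 library far from the others. For a single value chance gives about 1 in 20. The 43 values share the same libraries and the sums hold the genes, so the 7 cannot be set against that share. In 3-month replicate 4 the summed CPM was 7863 for the large subunit (6837 to 6928 in the other 3) and 5492 for the small subunit (4739 to 4859). The same library stood at 152 CPM for Rpl36 (123 to 128) and 86.7 CPM for Rps28 (79.2 to 79.7). In 3-month replicate 1 the summed TPM of the large subunit was 17773 (19621 to 19812) and Rpl23a stood at 114 CPM (130 to 132). In 3-month replicate 3 the paralog Rpl22l1 stood at 4.05 CPM (8.58 to 9.25).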

How the results depend on the processing

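No member call reversed under any alternative run. With library-size scaling 8 large subunit genes were lower, and with no filter 1 member was higher. On log2(TPM + 1), limma gave 7 members lower (6 large, 1 small) with median log2 fold changes of -0.071, -0.079 and -0.045 for all, large and small. On log2(TPM + 0.1) it gave 6 (5 large, 1 small), 7.41% against 2.40% of all genes, with medians of -0.071, -0.080 and -0.045. Summed TPM changed by -0.12 (large) and -0.070 (small) on the log2 scale. With the shortfall as a covariate 0 were lower (0 large, 0 small), 1 was higher, and 332 genes in all passed by edgeR. With the replicate block, 16 members were lower (10 large, 6 small) and 1075 genes passed; beside the calls given above, the block changed no other call of a named gene. With the block and the length offset 5 small subunit genes were lower. With the block and the shortfall 0 were lower (0 large, 0 small), 0 were higher (2 and 3 at an unadjusted p under 0.05) and 94 genes passed by edgeR, with medians of -0.058, -0.073 and -0.046. Leaving out each library in turn gave 3 to 29 members lower, 1 to 2 higher, 3 to 17 large and 0 to 12 small subunit genes lower, and 580 to 1642 genes in all. The cause of these changes was not tested. Expected counts of 20 to 168 limit Rpl22l1, and rows divided between copies are uncertain at any depth.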
